A study of Mus musculus with 5 samples.

Results

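The core planar cell polarity genes were followed in MLE-15 cells, a mouse lung epithelial line grown from tumours of transgenic mice that made SV40 large tumor antigen under the human surfactant protein C promoter. The set holds 10 genes: Vangl1, Vangl2, Celsr1, Celsr2, Celsr3, Ptk7, Prickle1, Prickle2, Fuz and Intu. They were chosen by name, as the probe sets whose annotation gives that symbol and no other, and each gene had 1 probe set. All 10 were among the 14979 genes tested. There were 3 arrays of cells given a Grhl2 shRNA and 2 arrays of cells given a non-silencing shRNA, each from a separate transduction of the same line. All 5 cultures were therefore infected with the GFP-marked lentivirus (16 h at a multiplicity of 50, with polybrene at 5 µg/ml) and went through puromycin selection (5 µg/ml for 6 days), and no array of untransduced cells was analysed here. The labels name a single hairpin against Grhl2, so an effect of the hairpin apart from Grhl2 cannot be told apart from an effect of the knockdown.

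Planar cell polarity is the alignment of cells within the plane of an epithelium, at right angles to the apical-basal axis. At each cell boundary, Celsr cadherins bind each other across the gap, with Vangl and Prickle proteins on one side of the cell and Frizzled and Dishevelled proteins on the opposite side. The asymmetry is passed on to the cytoskeleton and to cilia, the latter through effectors such as Fuz and Intu. In the mouse lung, Celsr1 and Vangl2 are needed for normal airway branching. Grainyhead factors have been tied to the pathway through Grhl3, which interacts genetically with Vangl2 in the mouse embryo.

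Grhl2, the targeted gene, had log2 values of 7.43, 7.43 and 7.60 on the shRNA arrays and 7.77 and 7.68 in the controls. The groups did not overlap, and the log2 fold change was −0.24 (95% confidence interval −0.39 to −0.082), but it did not pass the threshold of 0.05 (limma adjusted p = 0.0818). It passed with only genes above the 50th percentile tested (limma adjusted p = 0.0317), with a trended robust variance prior (0.0233) and without shRNA replicate 3 (0.0471). In no other alternative fit did Grhl2 pass 0.05. The limma adjusted p was 0.139 with no filter, 0.17 without shRNA replicate 1 and 0.201 without shRNA replicate 2. With each array left out in turn, its log2 fold change ran from −0.29 to −0.19. The knockdown, as read by this probe set, was thus small. Median log2 signal was 5.29 to 5.32 on every array. Above the filter on low values (a mean log2 value of 4.22) were 7 of 8 alveolar type II markers, Lamp3 being the exception, 5 of 5 epithelial and 5 of 5 fibroblast markers, and 3 of 4 each of the endothelial and leukocyte markers, so passing the filter does not by itself set a cell type apart. The highest array value was 12.2 in the type II list, for Sftpb, and 6.20 in the fibroblast list, for Col1a1. Type II markers differed widely: Nkx2-1 read 9.99 to 10.01, whereas Sftpc read 6.15 to 7.17, its lowest array below that fibroblast value. Napsa (0.36) was higher and Sftpd (−0.33) and Cldn4 (−0.42) lower after Grhl2 shRNA. Of the 4 ciliated cell markers, 2 passed the filter. Foxj1, the master factor of motile cilia, lay between 4.47 and 4.63, and Tppp3 between 8.36 and 8.57. Dnah5 and Ccdc39 were below the filter. The endothelial list had summed linear values of 213 to 250 on shRNA arrays and 148 to 163 on control arrays, with the Tek receptor gene higher (log2 fold change 0.91) and the other 3 markers at −0.15 (Pecam1), −0.068 (Cdh5) and −0.043 (Kdr, below the filter). The leukocyte list had 145 to 152 and 143 to 150, with Tyrobp higher (0.28). The part of these markers in the results below was not tested. In bulk RNA, fewer cells of a type and less RNA per cell cannot be told apart.

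None of the 10 core polarity genes passed the limma test at an adjusted p under 0.05, whereas 6.38% of all genes tested did (2.86% higher and 3.52% lower). Their log2 fold changes (shRNA minus control) ran from −0.16 for Celsr1 to 0.11 for Celsr3, with 6 above 0 and 4 below. The median absolute log2 fold change was 0.045, against 0.066 over all genes tested. At an unadjusted limma p under 0.05 there were 2 genes, Celsr1 and Fuz, where 23.1% of all genes reached that level. The groups did not overlap in 4 of the 10 genes, against 41.5% of all genes. Vangl2, Celsr1 and Fuz were lower on every shRNA array than on both control arrays, and Vangl1 was higher. Among all genes, 20.5% had every shRNA array below both controls and 21.0% had every shRNA array above. Over both directions, the counts of the polarity genes were thus no higher than the background of the whole table.

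**Figure D1:**
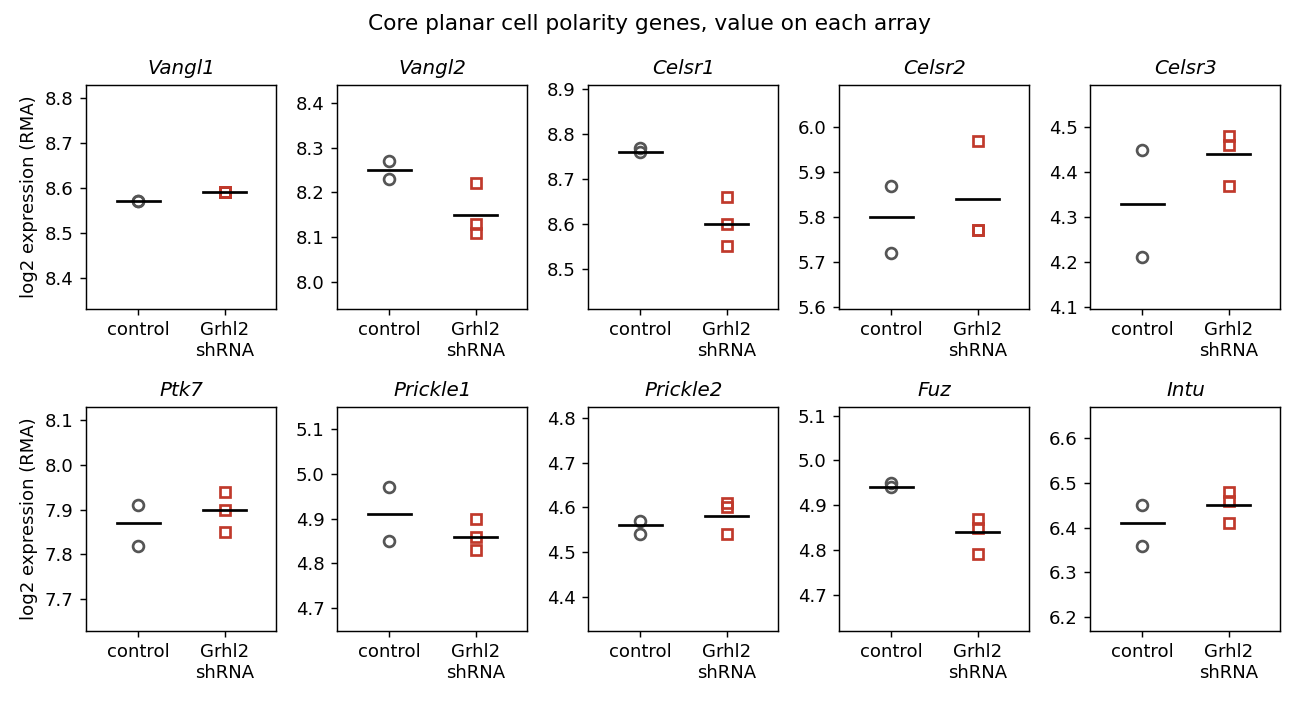
Each panel plots 1 polarity gene, with log2 RMA expression on the vertical axis (every panel spans the same height, around a different centre), open circles for the 2 control arrays, open squares for the 3 Grhl2 shRNA arrays and bars for group means. Celsr1 shows the widest separation of the groups, while the Celsr2, Celsr3, Ptk7, Prickle1, Prickle2 and Intu arrays overlap.

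The Celsr genes encode the large atypical cadherins that hold the polarity complex together across cell boundaries. Celsr1 (probe set 10431229), the main epithelial member of the family, had log2 values of 8.60, 8.55 and 8.66 after Grhl2 shRNA and 8.76 and 8.77 in the controls. Every shRNA array was lower, and the nearest arrays of the groups were 0.10 apart, close to the range of 0.11 within the shRNA group. The means were 8.60 ± 0.055 (SD, n = 3) and 8.76 ± 0.010 (SD, n = 2). The log2 fold change was −0.16 (SE 0.047), which is 89.4% of the control level (95% confidence interval 82.7 to 96.5%), and the limma adjusted p was 0.0928. Celsr1 is the member nearest the threshold. It passed with the trended robust variance prior (limma adjusted p = 0.0286) and with only the brighter genes above the 50th percentile tested (limma adjusted p = 0.037), at the same log2 fold change. The adjusted p over its 12 alternatives ran from 0.0286 to 0.298.

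Celsr2 (10501319) had log2 values of 5.77, 5.97 and 5.77 on the shRNA arrays and 5.72 and 5.87 in the controls. The groups overlapped, with shRNA replicate 2 the highest and control replicate 1 the lowest. Its log2 fold change was 0.041 (SE 0.075, limma adjusted p = 0.797), with a 95% confidence interval of −0.14 to 0.22. Celsr3 (10589130), best known for axon guidance, lay 0.17 above the filter. Its log2 values were 4.48, 4.37 and 4.46 on the shRNA arrays and 4.21 and 4.45 in the controls. Only control replicate 1 was apart, and the other 4 arrays were mixed. The log2 fold change was 0.11 (SE 0.074, limma adjusted p = 0.452), and without control replicate 1 it was −0.013.

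The Vangl genes encode the membrane proteins that recruit Prickle. Vangl2 (10360187), the gene mutated in the Loop-tail mouse, had log2 values of 8.22, 8.11 and 8.13 on the shRNA arrays and 8.27 and 8.23 in the controls. All 3 shRNA arrays were lower, but shRNA replicate 1 came within 0.013 of control replicate 2. The means were 8.15 ± 0.057 (SD, n = 3) and 8.25 ± 0.031 (SD, n = 2). This is a log2 fold change of −0.098 (SE 0.049, limma adjusted p = 0.285) and 93.4% of the control level (95% confidence interval 86.2 to 101.2%).

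Vangl1 (10500736), the paralog that shares functions with Vangl2, was the steadiest member. It read 8.59 on each shRNA array and 8.57 on both control arrays. Its log2 fold change was 0.018 (SE 0.039, limma adjusted p = 0.836), and the 95% confidence interval, −0.074 to 0.11, is the narrowest of the 10. The groups did not overlap in Vangl1 although the difference was this small. Of all genes tested, 15.4% had a smaller absolute log2 fold change.

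Ptk7 (10451372) encodes a receptor-like pseudokinase that acts with the Vangl proteins in neural tube closure. It had log2 values of 7.90, 7.94 and 7.85 on the shRNA arrays and 7.82 and 7.91 in the controls. The control values lay within or just below the shRNA range. Its log2 fold change was 0.029 (SE 0.049, limma adjusted p = 0.781), with a 95% confidence interval of −0.087 to 0.14.

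The Prickle genes encode LIM-domain proteins that bind Vangl proteins at the membrane from the cytoplasm. Prickle1 (10431738) had log2 values of 4.90, 4.83 and 4.86 on the shRNA arrays and 4.97 and 4.85 in the controls. Control replicate 2 fell inside the shRNA range, and the log2 fold change was −0.047 (SE 0.053, limma adjusted p = 0.657). Prickle2 (10546421) had log2 values of 4.54, 4.60 and 4.61 on the shRNA arrays and 4.57 and 4.54 in the controls. Its log2 fold change was 0.025 (SE 0.044, limma adjusted p = 0.792), and the groups overlapped. Both lay less than 1 log2 unit above the filter, by 0.66 and 0.35.

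Fuz and Intu encode partners in a complex that assembles cilia and was first found as an effector of planar polarity. Fuz (10552779) had log2 values of 4.85, 4.87 and 4.79 on the shRNA arrays and 4.94 and 4.95 in the controls. Every shRNA array was lower, with a gap of 0.071 between the groups, at a low signal that lay 0.65 above the filter. Fuz had a log2 fold change of −0.11 (SE 0.044, limma adjusted p = 0.209), which is 92.9% of the control level (95% confidence interval 86.4 to 99.9%). Intu (10491753) had log2 values of 6.41, 6.46 and 6.48 on the shRNA arrays and 6.45 and 6.36 in the controls. The groups overlapped, and the log2 fold change was 0.043 (SE 0.048, limma adjusted p = 0.649).

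**Figure D2:**
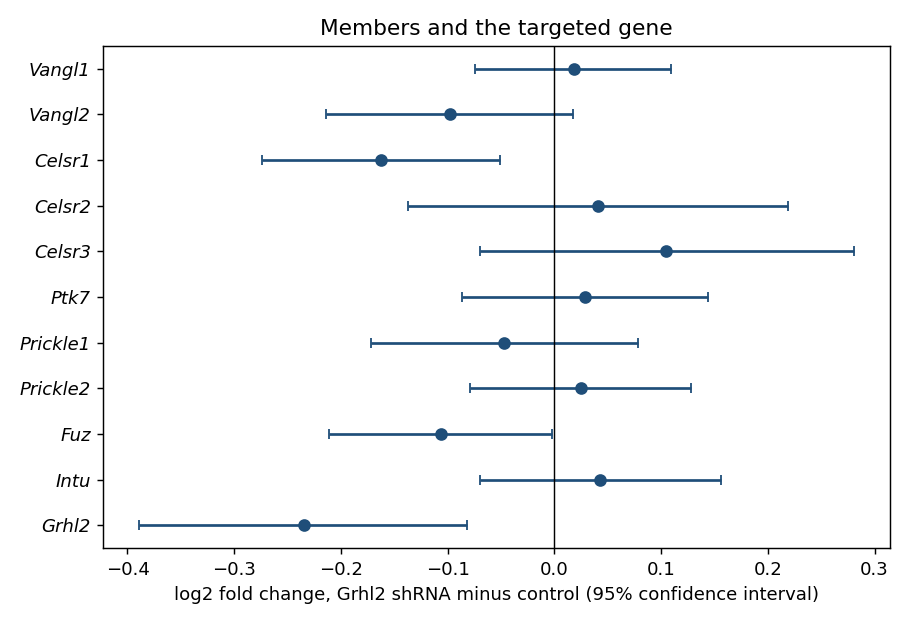
Points are log2 fold changes (Grhl2 shRNA minus control, horizontal axis) of the 10 polarity genes and of Grhl2, and bars are unadjusted 95% confidence intervals from limma. Celsr1, Fuz and Grhl2 have intervals below 0, and the intervals of the other 8 genes include 0.

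The intervals bound the change of each member. The lowest bound was 82.7% of the control signal, for Celsr1, and the highest was 121.5%, for Celsr3. At their own standard errors, the members would have needed a log2 difference of 0.17 (Vangl1) to 0.33 (Celsr2) to pass, and Celsr1 0.21. In simulated arrays, where 200 genes changed and fewer changed genes make the adjustment stricter, 18.8% of the genes given a log2 shift of 0.25 were called, and 88.4% of those given a shift of 0.5.

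Close relatives had point estimates of different size, so the change of their difference within each array was compared in 5 pairs chosen after the values were seen. For Vangl2 relative to Vangl1 it was −0.12 on the log2 scale (shRNA minus control), and for Fuz relative to Intu −0.15 (exact two-sided permutation p = 0.2 for both). For Celsr1 relative to Celsr3 it was −0.27, with within-array differences of 4.12, 4.17 and 4.20 on the shRNA arrays and 4.54 and 4.32 in the controls. Its exact two-sided permutation p of 0.1 is the smallest that the 10 splits of the arrays can give. It was −0.20 for Celsr1 relative to Celsr2 (exact permutation p = 0.2) and −0.071 for Prickle1 relative to Prickle2 (exact permutation p = 0.4). Adjusted over the 5 pairs, the exact permutation p-values ran from 0.25 to 0.4, and the design could not have given a p below 0.1 for any pair. The test therefore leaves unequal change of relatives undecided.

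Leaving out an array changed the sign of some fold changes, not always the smallest. Vangl1, Vangl2, Celsr1, Prickle2, Fuz and Intu kept their sign whichever array was left out. Celsr1 ran from −0.19 to −0.14, Vangl2 from −0.13 to −0.076 and Fuz from −0.12 to −0.082. Celsr2, Celsr3, Ptk7 and Prickle1 changed sign without control replicate 1, and Celsr2 also without shRNA replicate 2. Control replicate 1 held the lowest value of 3 members, Celsr2, Celsr3 and Ptk7, and the highest value of Vangl2 and Prickle1. shRNA replicate 2 held the lowest value of 3 members and the highest of 3.

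**Figure D3:**
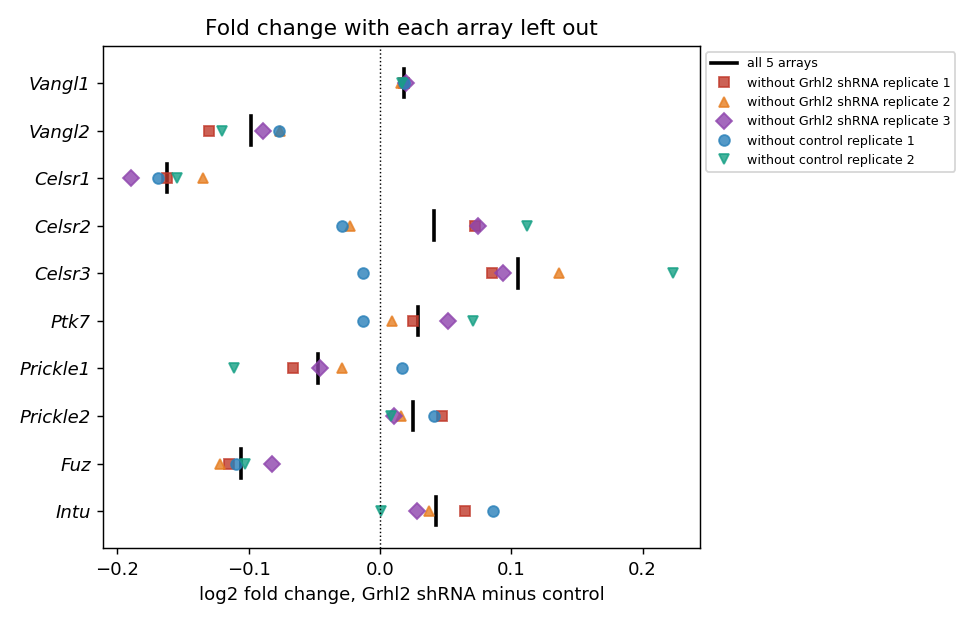
Each row is a polarity gene and the horizontal axis is its log2 fold change (Grhl2 shRNA minus control). The black bar marks the value from all 5 arrays and the symbols mark the value with a named array left out. Celsr1, Vangl2 and Fuz stay left of 0, whereas Celsr3 spans −0.013 to 0.22.

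Promoter sequence was examined because Grainyhead factors bind the motif AACCNGTT. Windows from 250 bases before to 50 bases after a RefSeq transcript start (GRCm38.p6) were at hand for 8 of the 10 genes, 12 windows in all. Vangl1 and Celsr1 had no window and were not searched. The motif was searched on both strands (its reverse complement is AACNGGTT, and AACCGGTT matches both). It occurred in 1 of the 12 windows, that of Fuz, and in 2.09% of the 32851 windows of all genes. The 250 bases before the start are shown for Fuz and Vangl2, members whose shRNA arrays were all below the controls, with the motif match in capitals. They lie at chr7:44895829-44896078 on the + strand and at chr1:172027296-172027545 on the − strand.
Fuz: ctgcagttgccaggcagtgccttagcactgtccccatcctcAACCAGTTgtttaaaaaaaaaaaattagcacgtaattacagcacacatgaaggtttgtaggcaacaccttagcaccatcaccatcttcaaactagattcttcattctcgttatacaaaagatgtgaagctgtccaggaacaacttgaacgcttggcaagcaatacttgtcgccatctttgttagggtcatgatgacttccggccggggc
Vangl2: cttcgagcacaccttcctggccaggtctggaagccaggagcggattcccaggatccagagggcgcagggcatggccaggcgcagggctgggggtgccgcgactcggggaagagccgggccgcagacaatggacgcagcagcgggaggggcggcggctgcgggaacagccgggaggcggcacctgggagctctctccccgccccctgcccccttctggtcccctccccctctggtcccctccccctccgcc
The match in Fuz, AACCAGTT, begins at position −209 from the start. The RefSeq span of Fuz begins 1524 bases upstream of this window, so the window lies inside the annotated gene. Of the Vangl2 stretch, 23 bases lie inside the RefSeq span of that gene. The Fuz window is 45.0% G and C and the Vangl2 window 71.3%, against a median of 52.7% over all windows. A match describes letters only, and no match in Vangl2 says only that these letters are not in this window.

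The partners of the core genes in the pathway were read from a list of 36 genes, of which 32 were tested. None rose, 1 fell and 31 did not pass (3.12% passed, against 6.38% of all genes). Their median log2 fold change was −0.023, against 0.002 over all genes, with 9 above 0 and 23 below. Of the 14979 genes tested, 7631 were above 0 and 7348 below. An unadjusted limma p under 0.05 was reached by 5 of the 32, where 23.1% of all genes reached that level. The groups did not overlap in 12 of the 32, again beside 41.5% of all genes. Fat4, a giant cadherin that binds Dachsous in a parallel polarity system, was the gene that fell. Fat4 (10491732) had log2 values of 5.38, 5.22 and 5.48 on the shRNA arrays and 5.72 and 5.67 in the controls. All 3 shRNA arrays were lower, and Fat4 fell by 0.34 on the log2 scale (SE 0.074, limma adjusted p = 0.0449), to 79.1% of the control level. Its call sat at the threshold. Fat4 no longer passed without shRNA replicate 1 (limma adjusted p = 0.0967), shRNA replicate 2 (0.083), control replicate 1 (0.195) or control replicate 2 (0.165). Nor did it pass with no filter on low values (limma adjusted p = 0.0822) or with the replicate number as a block (limma adjusted p = 0.0519). No control shares the number of shRNA replicate 3, so the block fit takes its fold change from the other arrays. Without shRNA replicate 3 and with no block, Fat4 passed at the same log2 fold change of −0.40 (limma adjusted p = 0.0391).

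On the Frizzled and Dishevelled side of the complex, no gene passed the test. Fzd6 (10423825), a receptor that orients hair follicles, had the largest positive value. It read 7.20, 7.12 and 7.05 on the shRNA arrays and 6.95 and 6.66 in the controls, with a log2 fold change of 0.32 (SE 0.087, limma adjusted p = 0.0789). All 3 shRNA arrays were higher, but the control arrays differed from each other more than the shRNA arrays did, and without control replicate 2 the log2 fold change was 0.18. Dvl3 (10434366), a Dishevelled adaptor named after its values were seen, read 9.10, 9.20 and 9.14 on the shRNA arrays and 9.34 and 9.35 in the controls. Its log2 fold change of −0.20 had a limma adjusted p of 0.0516. Its paralogs Dvl1 and Dvl2, likewise named after their values were seen, were at −0.023 and 0.044 (limma adjusted p = 0.86 and 0.604). None of the 5 genes of the Fuz and Intu complex and intraflagellar transport (−0.12 to 0.10) passed.

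**Figure D4:**
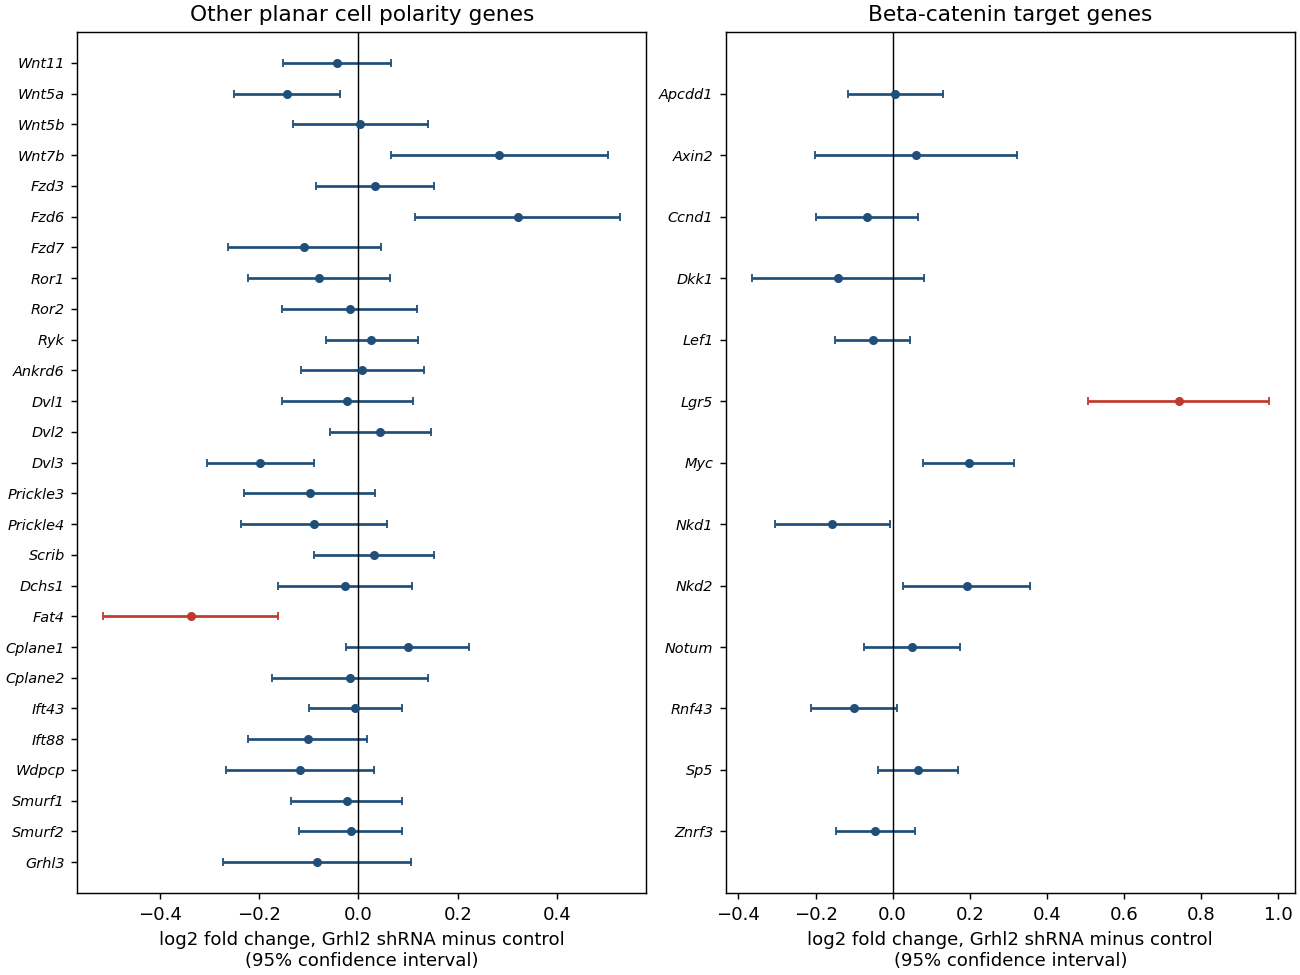
Points are log2 fold changes (Grhl2 shRNA minus control, horizontal axis) with unadjusted 95% confidence intervals from limma, for 27 of the 32 other planar cell polarity genes tested (left) and 13 beta-catenin target genes (right). Red marks an adjusted p under 0.05, which Fat4 and Lgr5 reached among the genes plotted.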

How the data were processed

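RNA of the 5 cultures was hybridised to whole-transcript arrays. The authors deposited log2 values, and the submitters' processing notes name RMA and Affymetrix Expression Console. The sources used here give no software versions or scan dates, and scanner files were not used. The log base was taken from RMA and the range of the values. Of 34760 probe sets, 21640 had exactly 1 symbol in the platform annotation. Those with a mean below the 25th percentile (log2 4.22) were left out, and the brightest probe set stood for each gene (14979 genes). The whole table was fitted with lmFit and eBayes of limma 3.58.1 (R 4.3.3), two-sided, with Benjamini-Hochberg adjustment over all genes. Precision is limited by the number of arrays, which are separate transductions of 1 line.

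The members and lists were chosen with earlier results of these data known. The genes named are the 10 members, Grhl2 and, from each list, called genes and the largest rise and fall, with exceptions stated. In simulated arrays (200 changed genes of 14979, 10 runs), with spreads drawn from the prior of the test itself, 4.45% of calls were false. Since the test supplied the spreads, this rate does not measure false calls on the real arrays. Promoter windows came from RefSeq. Alternatives covered the filter, centring, probe sets, variance prior, array weights, replicate block, each array left out and the threshold.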

Additional observations from a re-analysis of the deposited data

How the results depend on the processing

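The count of 0 core polarity genes past the threshold held under 10 of 13 alternatives and became 1, Celsr1, with the filter at the 50th percentile, with a trended robust prior and at a threshold of 0.1. Of 115 alternative fold changes of the members, 108 kept their sign and their side of the threshold, 2 (both Celsr1) passed it, and 5 changed sign when an array was left out. Those ranges were −0.029 to 0.112 for Celsr2, −0.013 to 0.223 for Celsr3, −0.013 to 0.071 for Ptk7 and −0.111 to 0.017 for Prickle1. Over the whole table, 956 genes passed; the count was 418 with no filter, 1708 with the filter at the 50th percentile, 2034 with the trended robust prior, 1851 at a threshold of 0.1 and 67 to 493 with an array left out. Without a control array the remaining control is assumed to vary like the shRNA group. The partner count of 1 became 0 with no filter, 2 (Dvl3 and Fzd6) with the filter at the 50th percentile, where Fat4 was not tested, 4 with the trended robust prior and 3 at a threshold of 0.1, and ran from 0 to 1 with an array left out. The beta-catenin target count of 1 became 2 with the trended robust prior and at a threshold of 0.1, and ran from 0 to 1 with an array left out. With the filter at the 50th percentile it stayed 1, of 5 tested, but was Myc, since Lgr5 was not tested there. The cause of these moves was not tested.

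Replicates 1 and 2 exist in both groups, but no label ties the numbers to a shared batch. The deviations of same-numbered arrays from their group means correlated at 0.06 and 0.02 across genes. Those of shRNA replicate 3 and control replicate 2 correlated at 0.04. With 2 controls, the deviations of the controls mirror each other, so these values cannot decide whether a batch was shared. In the replicate block, shRNA replicate 3 does not enter the fold change, since no control shares its number. With the block, 172 genes, 0 members, 0 partner genes and 1 beta-catenin target gene passed.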

Other observations

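Wnt signals also run through beta-catenin, a branch that shares Frizzled and Dishevelled proteins with planar polarity. Of 14 beta-catenin target genes listed, 13 were tested. Of these, 1 rose, none fell and 12 did not pass (7.69% passed, against 6.38% of all genes). Log2 fold changes were above 0 in 7 and below 0 in 6. The groups did not overlap in 7 of the 13, against 41.5% of all genes. At an unadjusted limma p under 0.05 there were 4, where 23.1% of all genes reached that level. The gene that rose was Lgr5 (10372503), a receptor for R-spondins and a stem cell marker. Lgr5 had log2 values of 4.86, 5.10 and 5.02 on the shRNA arrays and 4.11 and 4.39 in the controls, so the groups did not overlap, at a low signal whose control mean of 4.25 lies close to the filter of 4.22. Its log2 fold change was 0.74 (SE 0.099, limma adjusted p = 0.0119), and without control replicate 1 it was 0.60 (limma adjusted p = 0.064). Nkd1 (10573779), a feedback inhibitor, had the lowest value, −0.16 (limma adjusted p = 0.196). Axin2 and Lef1, widely used readouts of this branch and named after their values were seen, were at 0.062 and −0.051 (limma adjusted p = 0.795 and 0.515). Myc and Nkd2, also named after their values were seen, were at 0.20 and 0.19 (limma adjusted p = 0.0664 and 0.156). In both, every shRNA array was above both controls.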
